A study of Homo sapiens with 6 samples.

Results

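The genes described here are long intergenic noncoding RNAs that carry a symbol made of LINC and a number. The platform annotation gave such a symbol to 545 array features, which stood for 458 genes. The brightest feature of each gene was used, and the 300 genes with the highest mean over the 6 arrays were kept as members, out of 14884 named genes on the array. Of the 158 LINC genes below that limit only the calls are given. All 300 members are annotated as long noncoding RNA genes in RefSeq, and they lie on 24 chromosomes.

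RNA came from SUM159, an established cell line of a human breast carcinoma that lacks the estrogen and progesterone receptors and ERBB2 amplification. The decitabine cells had been kept for 72 h in 1 µM decitabine, with fresh medium each day, and the other cells for the same time in medium that the labels call NT, read here as untreated. There were 3 single-colour arrays in each group. The titles of the untreated samples repeat the dose, which was read as part of the naming, and the sources used here do not give whether their medium held the solvent. The protocol names deoxy-azacytidine and the descriptions decitabine, which is the name used. A single line limits what the groups can stand for. Vimentin (VIM), CD44 and AXL had means over the 6 arrays of 9.08, 6.68 and 6.87 on the log2 scale, while the estrogen and progesterone receptor genes ESR1 and PGR had 1.94 and 2.05. ERBB2 had no named feature, and the 6 measured markers of other cell types (CD14, PECAM1, VWF, ALB, APOA1 and GFAP) had means of 2.17 to 3.15 with no call. AXL fell, with means of 5.97 in decitabine cells and 7.76 in untreated cells (limma adjusted p = 0.00361). EPCAM, an epithelial marker, had means of 4.04 in decitabine cells and 2.94 in untreated cells (adjusted p = 0.127). In RNA from whole cultures, fewer cells making a transcript and less of it per cell cannot be told apart.

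Long noncoding RNAs are transcribed by RNA polymerase II and often capped, spliced and polyadenylated, but they are not known to encode proteins. Some act near the site where they are made, others as scaffolds or decoys in the nucleus or cytoplasm, and for most LINC genes no role has been settled. The numbered symbols are given to intergenic transcripts that have no better name, so the group shares a way of naming and not a pathway. Many are restricted to a tissue, and methylated DNA at a promoter goes with silence of the gene. Decitabine, an analogue of deoxycytidine, enters DNA during replication and binds DNA methyltransferases covalently, so that methylation is lost over cell divisions.

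Few of the LINC RNAs changed after decitabine, and most of them sat at dim values. The mean over the 6 arrays was under 3 for 201 members (67%), against 39.2% of all named genes. LINC02582 and LINC01123 rose, LINC00632 and LINC00648 fell, while the other 296 members did not pass the test. A gene is said to have risen or fallen when its limma p, adjusted by the Benjamini-Hochberg method over all 14884 genes, was under 0.05. The 2 rises were 0.667% of the members, against 2.01% of all named genes that rose, and the 2 falls were 0.667%, against 1.02% of all named genes. Arrays with equal replicate numbers in their titles were treated as pairs. Once the fit held the replicate number as a block, 12 rises and 8 falls were found among the members. That is 4% and 2.67% of the members, against 7.79% and 5.37% of all named genes in the same fit. Shares of members were thus below those of all genes in both directions and in both fits, on only 2 genes per direction without the block. The members were also dimmer, with a median untreated mean of 2.57 against 3.53 for all named genes. Shares by level are given below, and the part of level in this difference was not tested. At an unadjusted p under 0.05 without the block, 20 of 300 members and 2072 of 14884 genes passed.

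LINC02582, which has been described in breast cancer cells as a factor in the response to radiation, stood furthest apart. Its values were 6.12, 5.83 and 5.83 on the 3 decitabine arrays, against 1.33, 1.63 and 1.50 on the untreated arrays. Its untreated mean was the lowest of all members, and its decitabine values lay above the median of all named genes. The mean was 5.93 ± 0.17 after decitabine and 1.49 ± 0.15 in untreated cells (SD, n = 3 each), which makes the change 4.44 on the log2 scale (SE 0.20, 21.7-fold higher, limma adjusted p = 6.66e-05). With no measure of background, how much of the untreated value is signal is unknown, and the fold is that of the deposited values. It ranked 58th of the LINC genes by its mean over all arrays, but its untreated mean lay below the lowest member mean of 1.92. It therefore entered the group through its decitabine values, as did 10 other members, none of which passed in either fit.

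LINC01123 read 6.54, 7.04 and 6.47 after decitabine, against 4.41, 3.77 and 4.67 in untreated cells. All decitabine arrays were higher by at least 1.80 than the untreated array of the same number. The means were 6.68 ± 0.31 in decitabine cells and 4.28 ± 0.46 in untreated cells (SD, n = 3 each), a log2 change of 2.40 (SE 0.29, 5.28-fold, limma adjusted p = 0.00576). Its start site is shown because it is CpG-rich and belongs to the larger of the rises for which RefSeq gives a start. The sequences printed here span 250 bases before to 50 bases after the start in the RefSeq promoter table (GRCh38.p14), 5′ to 3′ on the strand of the gene, with each CpG dinucleotide in capitals. The 300 bases of LINC01123 (chr2:109986730-109987029, plus strand) hold 25 CpGs at a G and C content of 67.0%.
LINC01123: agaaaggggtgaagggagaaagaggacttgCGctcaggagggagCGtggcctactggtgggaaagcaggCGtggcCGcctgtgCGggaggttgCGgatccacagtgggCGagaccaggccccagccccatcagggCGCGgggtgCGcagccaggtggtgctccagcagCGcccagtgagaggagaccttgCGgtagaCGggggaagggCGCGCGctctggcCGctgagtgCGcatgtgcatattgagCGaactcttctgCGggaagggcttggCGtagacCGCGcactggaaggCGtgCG

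LINC00632 showed the largest fall among the members. Its locus is known as the origin of the transcripts from which the circular RNA CDR1-AS is made, and the array feature was not matched to the circle. Values were 3.65, 2.80 and 2.45 on the decitabine arrays, against 5.42, 5.62 and 6.30 on the untreated arrays. The groups did not overlap, and the difference within pairs was -1.77, -2.82 and -3.85 for replicates 1, 2 and 3. The mean was 2.97 ± 0.62 in decitabine cells and 5.78 ± 0.46 in untreated cells (SD, n = 3 each), a log2 change of -2.81 (SE 0.36, 7.03-fold lower, limma adjusted p = 0.00699). In contrast to LINC01123, its first listed start (chrX:140709509-140709808, plus strand) holds 2 CpGs, and its 2 further starts hold 3 each.
LINC00632: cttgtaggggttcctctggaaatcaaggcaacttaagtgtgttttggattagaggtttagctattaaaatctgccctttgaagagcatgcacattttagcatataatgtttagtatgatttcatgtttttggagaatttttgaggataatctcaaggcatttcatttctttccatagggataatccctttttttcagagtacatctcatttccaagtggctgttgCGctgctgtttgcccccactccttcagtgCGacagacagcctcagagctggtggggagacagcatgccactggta

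LINC00648 also fell. The decitabine arrays gave 4.25, 4.56 and 3.87, and the untreated arrays gave 5.68, 6.47 and 6.35. Again no decitabine value reached the lowest untreated value. The mean was 4.23 ± 0.35 after decitabine and 6.17 ± 0.43 without it (SD, n = 3 each), a log2 change of -1.94 (SE 0.29, 3.84-fold lower, limma adjusted p = 0.0129). The adjusted p was 0.0589 without decitabine replicate 3, 0.0687 without untreated replicate 2 and 0.06 without untreated replicate 3, with changes of -1.76, -1.79 and -1.85. LINC02582, LINC01123 and LINC00632 passed in each of the 6 fits with 1 array missing.

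**Figure D1:**
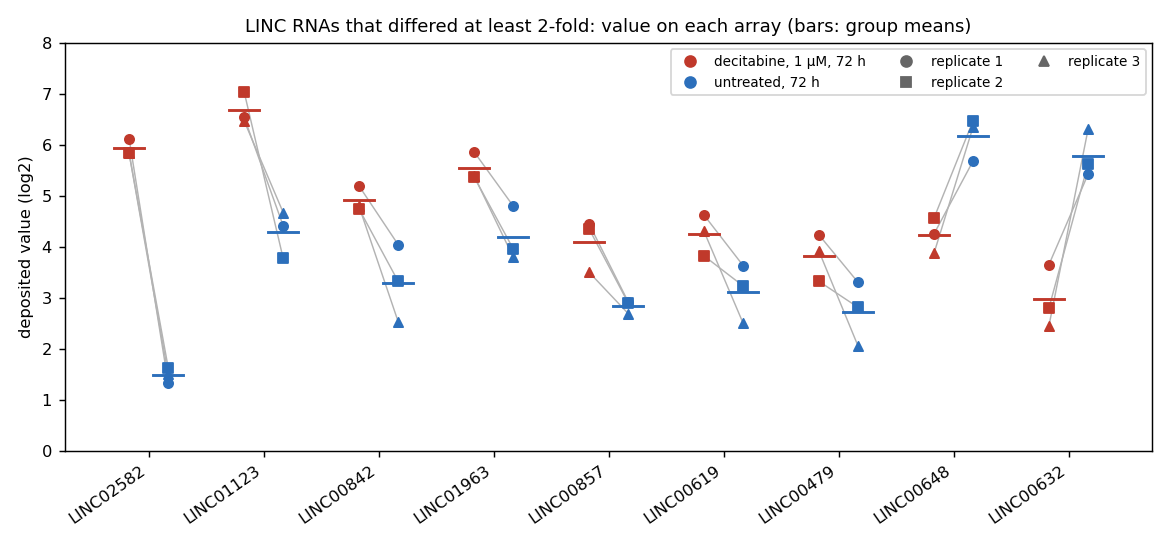
Deposited log2 value on each array (y axis) of the 9 LINC RNAs whose group means differed at least 2-fold, with decitabine points (red) left of untreated points (blue), grey lines joining same-numbered arrays and short bars at the group means. LINC02582 goes furthest upward (6.12, 5.83 and 5.83 after decitabine against 1.33, 1.63 and 1.50), and LINC00632 furthest downward.

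In all, 9 members (3%) differed at least 2-fold between the group means, 7 upward and 2 downward, against 4.9% of all named genes. All 9 passed with the replicate block, and 4 passed without it. The 5 that passed with the block and not without it were all higher after decitabine, and all 5 also passed with quantile normalization and no block. LINC00842 had 5.19, 4.74 and 4.79 in decitabine cells, against 4.04, 3.32 and 2.53 in untreated cells, a log2 change of 1.61 (limma adjusted p = 0.0645, and 0.0103 with the block). Untreated values of this gene spread over 1.51, and each pair differed upward by at least 1.15. LINC01963 had 5.86, 5.37 and 5.39 in decitabine cells, against 4.80, 3.96 and 3.80 in untreated cells, a change of 1.35 (adjusted p = 0.0614, and 0.00509 with the block).

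LINC00857, which has been studied as a growth-promoting RNA in lung and bladder cancer, read 4.45, 4.35 and 3.50 on decitabine arrays and 2.92, 2.90 and 2.69 on untreated arrays, a change of 1.26 (adjusted p = 0.0607, and 0.0101 with the block). LINC00619 read 4.62, 3.82 and 4.30 on decitabine arrays, against 3.63, 3.23 and 2.50 on untreated arrays (change 1.13, adjusted p = 0.146, and 0.0329 with the block). For LINC00479 the values were 4.23, 3.32 and 3.91, against 3.30, 2.81 and 2.05 in untreated cells (change 1.10, adjusted p = 0.199, and 0.0451 with the block). No decitabine array of these RNAs was below any untreated array, although the gap for LINC00479 was only 0.02.

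The start sites of LINC00842 and LINC00479 are set side by side because both RNAs were higher after decitabine and the sites differ in CpG content. That of LINC00842 (chr10:46398112-46398411, plus strand) holds 31 CpGs, and that of LINC00479 (chr21:41715726-41716025, minus strand) holds 4.
LINC00842: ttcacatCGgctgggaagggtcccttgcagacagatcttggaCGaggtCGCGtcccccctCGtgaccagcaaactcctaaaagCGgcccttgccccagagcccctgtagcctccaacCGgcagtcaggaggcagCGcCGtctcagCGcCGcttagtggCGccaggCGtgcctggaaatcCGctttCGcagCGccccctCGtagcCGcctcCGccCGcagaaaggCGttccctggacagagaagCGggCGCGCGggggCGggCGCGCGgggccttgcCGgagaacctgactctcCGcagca
LINC00479: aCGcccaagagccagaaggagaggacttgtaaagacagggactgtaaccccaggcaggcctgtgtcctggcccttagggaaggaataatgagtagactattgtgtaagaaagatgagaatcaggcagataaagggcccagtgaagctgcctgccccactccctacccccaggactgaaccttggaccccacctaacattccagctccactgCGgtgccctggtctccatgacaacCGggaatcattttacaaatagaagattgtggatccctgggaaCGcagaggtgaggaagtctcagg

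The 6 falls that passed with the block and not without it were smaller than 2-fold in these fits. LINC00673, LINC01446 and LINC01023 also passed without a block after quantile normalization. LINC00673, transcribed from a locus linked to pancreatic cancer risk, read 4.94, 5.13 and 4.34 after decitabine, against 5.84, 5.79 and 5.67 in untreated cells, a change of -0.96 (adjusted p = 0.0953, and 0.0175 with the block). LINC01446 read 5.66, 5.69 and 5.60, against 6.16, 6.32 and 6.83 in untreated cells (-0.79, adjusted p = 0.138, and 0.0387 with the block). For both RNAs all 3 decitabine arrays lay below all untreated arrays.

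LINC01023 had 4.51, 4.40 and 4.39 in decitabine cells and 5.18, 5.18 and 5.02 in untreated cells, a change of -0.69 (adjusted p = 0.107, and 0.0188 with the block). LINC00622 had 2.17, 2.31 and 2.07 in decitabine cells and 2.79, 2.85 and 2.91 in untreated cells, a change of -0.67 (adjusted p = 0.125, and 0.0258 with the block). Both had narrow groups that did not overlap. LINC00278 differed by -0.91 with overlapping groups (adjusted p = 0.526, and 0.0454 with the block). This gene is the only member on the Y chromosome. With no measure of background, whether its feature measured RNA of that gene is unknown, and it stays among the falls counted with the block. In all, the block added 10 rises, of 0.60 to 1.61, and 6 falls, of -0.96 to -0.63. The groups overlapped for 4 of these 16 genes, although every pair of arrays differed in the same direction.

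Members were also compared pair by pair. The decitabine array was higher than its same-numbered untreated array in all 3 pairs for 37 members (12.3%, against 22.9% of all named genes) and lower in all 3 for 46 (15.3%, against 21.8%). Together these 83 members are 27.7%, against 44.8% of all named genes. The other 217 members went different ways, or did not differ, in at least one pair. The groups were fully apart upward for 11 members (3.67%, against 11.3% of all named genes) and downward for 13 (4.33%, against 8.74%), and 8 of these 24 passed neither test. The median change of the members was -0.08 on the log2 scale (-0.07, -0.07 and 0.00 in pairs 1, 2 and 3), against -0.02 for all named genes. It was -0.225 without decitabine replicate 1 and 0.145 without untreated replicate 1. Both arrays of replicate 1 ran higher than the others, by medians of 0.48 and 0.56 over the members in decitabine and untreated cells. Leaving out a single array breaks a pair and lets this offset into the change, so these fits cannot decide whether the sign is stable. The middle 50% of members had differences of -0.21 to 0.10.

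The values of both arrays of replicate 1 ran higher than the others at the dim end, which bears on most members. The median over the 300 members was 2.885, 2.365 and 2.385 on decitabine arrays 1, 2 and 3, and 3.015, 2.48 and 2.28 on untreated arrays 1, 2 and 3. Replicate 1 held the highest of the 3 decitabine values for 226 members (75.3%) and the highest of the 3 untreated values for 222 (74%). For all named genes these shares were 61.0% and 58.0%. The part of this offset in the members' spread was not tested beyond the block. The median standard error of the members' change was 0.31 without the block and 0.155 with it.

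The members were then split into 3 classes of nearly equal size by their mean on the untreated arrays, at 2.30 and 3.02 on the log2 scale, which gave 103 dim, 97 middle and 100 bright members because of equal means. The same limits were applied to all named genes. Most calls lay in the bright class. In the fit without a block 1 dim member (LINC02582), no middle member and 3 bright members passed, against 1.35%, 2.57% and 3.83% of all named genes in these level ranges. The 3 bright members were 1 rise and 2 falls, against 2.12% and 1.71% of all named genes. At an unadjusted p under 0.05, 2 dim, 3 middle and 15 bright members passed (1.94%, 3.09% and 15%), against 3.57%, 8.02% and 19.7% of all named genes. With the block 2 of 103 dim members passed (1.94%), 3 of 97 middle members (3.09%) and 15 of 100 bright members (15%), against 3.79%, 8.47% and 18.2% of all named genes.

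**Figure D2:**
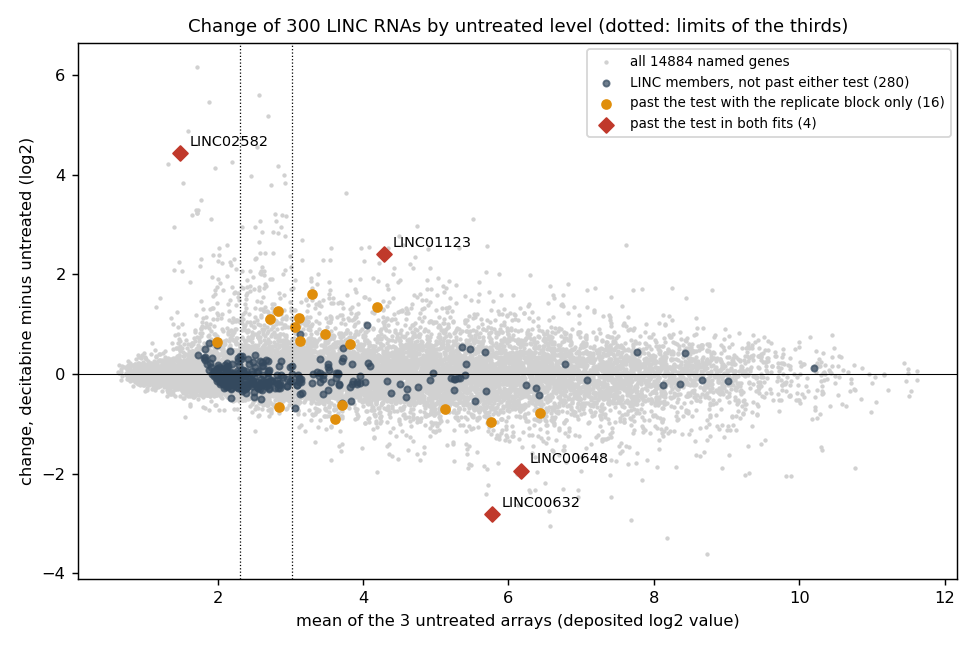
Change of each gene (y axis, log2, decitabine minus untreated) against its mean on the 3 untreated arrays (x axis, deposited log2 value) for the 300 LINC members over all 14884 named genes in grey. Dotted lines mark the class limits, which were set from the members' own untreated means. Most members lie near a change of 0, and the members' falls below -1 appear only at untreated means above 5.

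Rises and falls were also counted by level. With the block, 8 bright members rose and 7 fell (9.43% and 8.79% of all named genes in that range). Among dim members 2 rose and none fell (3.65% and 0.14% of all named genes), and among middle members 2 rose and 1 fell (7.86% and 0.611%). Of all 3559 named genes in the dim range 130 rose and 5 fell with the block, and without it none fell in the dim or middle range. The untreated values enter both the classes and the change, and with classes by the mean of all 6 arrays LINC02582 moved to the bright class and no dim member passed.

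The bright class of the members was itself dimmer than the genes it was set against. Its median untreated mean was 3.84, against 5.12 for all named genes in the range. In that class 16 members were higher and 25 lower in all 3 pairs, together 41%, against 56.5% of all named genes. In the dim class 20 of 103 members (19.4%) kept a single direction over the pairs, against 24.1%, and in the middle class 22 of 97 (22.7%), against 32.1%. Of the 30 members with an untreated mean of 5 or more, 5 fell (16.7%) and none rose with the block, against 12.89% and 10.01% of the 4654 named genes at that level.

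**Figure D3:**
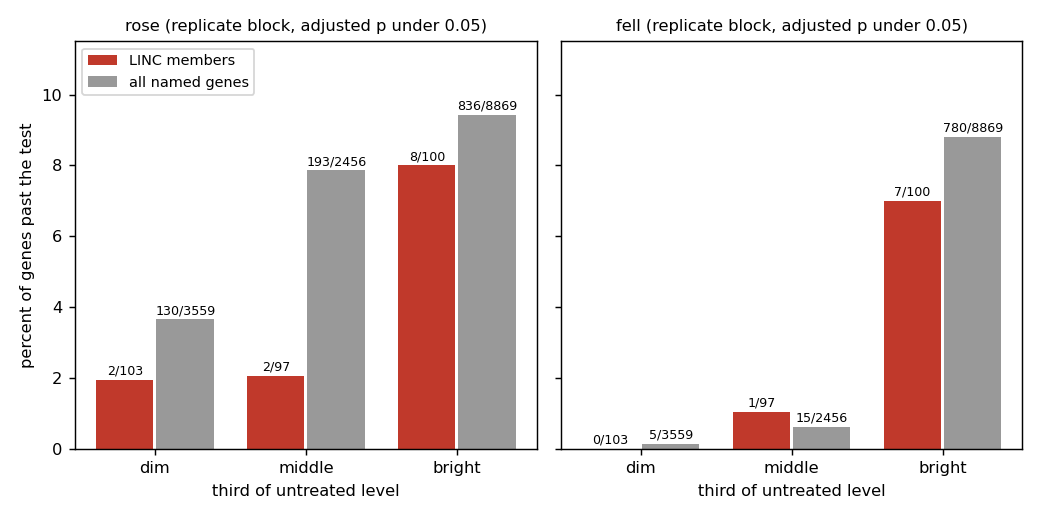
Percent of genes past the test with the replicate block (y axis) in each class of untreated level (x axis), rises in the left panel and falls in the right, for LINC members (red) and all named genes (grey), with the counts above the bars. Bars of the members are lower than those of all genes in each class except for falls in the middle class, where 1 of 97 members fell.

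None of the 5 brightest members passed the test. Deposited values depend on the probes of each feature, so their order is not an order of RNA abundance. LINC00987 had 10.43, 10.35 and 10.18 in decitabine cells, against 10.40, 10.28 and 9.93 in untreated cells (change 0.12, SE 0.21, adjusted p = 0.984). LINC01347 averaged 8.88 ± 0.12 in decitabine cells and 9.03 ± 0.22 in untreated cells (SD, n = 3 each), a change of -0.15. LINC00707, an RNA described in several carcinomas, averaged 8.85 ± 0.57 after decitabine and 8.43 ± 0.30 without it (SD, n = 3 each), a change of 0.42 (SE 0.32, adjusted p = 0.757). LINC01000 and LINC00999 differed by -0.11 and -0.20, with adjusted p of 0.979 and 0.899. With the block none of these RNAs passed either.

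LINC RNAs with a described role were listed separately, and 16 of the 33 listed were members. LINC00632 fell and LINC00673 passed with the block and not without it, as given above, and the other 14 passed in neither fit. LINC01116, which lies beside the HOXD cluster, had the largest change of these, 0.81, with 4.65, 3.69 and 3.48 in decitabine cells against 3.51, 2.60 and 3.29 in untreated cells (adjusted p = 0.394, and 0.0629 with the block). LINC00963 differed by -0.55, with 5.13, 4.81 and 5.04 in decitabine cells below 5.28, 5.60 and 5.74 in untreated cells (adjusted p = 0.297, and 0.0879 with the block). LINC00511, described as growth-promoting in breast cancer, had 3.02, 3.16 and 4.06 in decitabine cells and 3.44, 3.03 and 3.63 in untreated cells, a change of 0.05 (SE 0.32). LINC00472, described as a tumour suppressor in breast cancer, differed by -0.39 (SE 0.28, adjusted p = 0.717).

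LINC00473, which cyclic AMP signalling through CREB induces in other cells, was dim in both groups, at 2.09 ± 0.28 after decitabine and 2.00 ± 0.50 without it (SD, n = 3 each). LINC00467, LINC00941 and LINC00908 differed by -0.32, 0.21 and -0.23. The remaining 5, LINC00520, LINC01133, LINC00665, LINC00668 and LINC00899, differed by at most 0.15 in size. Their groups overlapped.

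The next protein-coding gene of each member was looked up in the RefSeq gene table (GRCh38.p14), and it had a named feature for 185 members. Of the 300 members 25 overlapped that gene, and the sources used here do not say whether the features tell the strands apart. LINC00648 and its next gene MDGA2, which encodes a cell surface protein of the nervous system, both fell. MDGA2 had 5.30, 4.87 and 3.71 in decitabine cells, against 6.66, 7.33 and 6.86 in untreated cells, a log2 change of -2.32 (SE 0.41, adjusted p = 0.0241). The other members past the test without the block had neighbours that did not pass in either fit. NETO1, a receptor-associated membrane protein gene next to LINC02582, differed by -0.11 (SE 0.22), and LIMS3, next to LINC01123, by -0.26 (SE 0.21). LIMS3 has a near-identical copy, so its value is uncertain. SOX3, the transcription factor gene next to LINC00632, had 2.06, 1.32 and 1.28 in decitabine cells and 1.99, 1.77 and 0.96 in untreated cells, a change of -0.02 (SE 0.34).

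Over the 185 members the next gene rose for 2 and fell for 7, and with the block for 8 and 18. Some members share a next gene: the 173 distinct neighbours had 2 rises and 6 falls, and 8 and 17 with the block. Of all 14884 named genes 2.01% rose and 1.02% fell, and 7.79% and 5.37% with the block. Of the 11915 protein-coding genes 2.29% rose and 1.16% fell, and 8.84% and 6.09% with the block. Among protein-coding genes of the bright class 9.84% rose and 9.04% fell with the block. The neighbours were not matched for level to any of these groups. Among the 15 members past the test with the block whose next gene was measured, 10 had risen and 5 fallen. Of the neighbours of the 10, 1 rose and none fell, and that was ANXA3, a gene of a calcium-dependent phospholipid-binding annexin, next to LINC01094. ANXA3 is named after its values were seen, with 8.90, 8.41 and 8.55 in decitabine cells, against 5.85, 5.13 and 5.57 in untreated cells (change 3.10, SE 0.26, adjusted p = 0.00112). LINC01094 itself differed by 0.95 on its brighter feature (adjusted p = 0.248, and 0.0160 with the block) and by 0.02 on its other feature. Only 2 of the 10 had a neighbour whose difference had the same sign, while all 5 neighbours of members that fell were lower. Of these MDGA2 fell in both fits, and ZNF697, next to LINC00622 and also named after its values were seen, differed by -0.94 (adjusted p = 0.193, and 0.0166 with the block). The remaining neighbours of members that fell passed in neither fit. They were SOX3 at -0.02 (SE 0.34), POM121L12, next to LINC01446, at -0.14 (SE 0.42) and FER, next to LINC01023, at -0.41 (SE 0.20). Over all 185 members the median change of the neighbours was -0.10, and 55.7% of members had a neighbour of the same sign. The changes had a Pearson correlation of 0.15 and a Spearman correlation of 0.08 across genes. Genes are not independent replicates, and both changes come from the same 6 arrays.

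**Figure D4:**
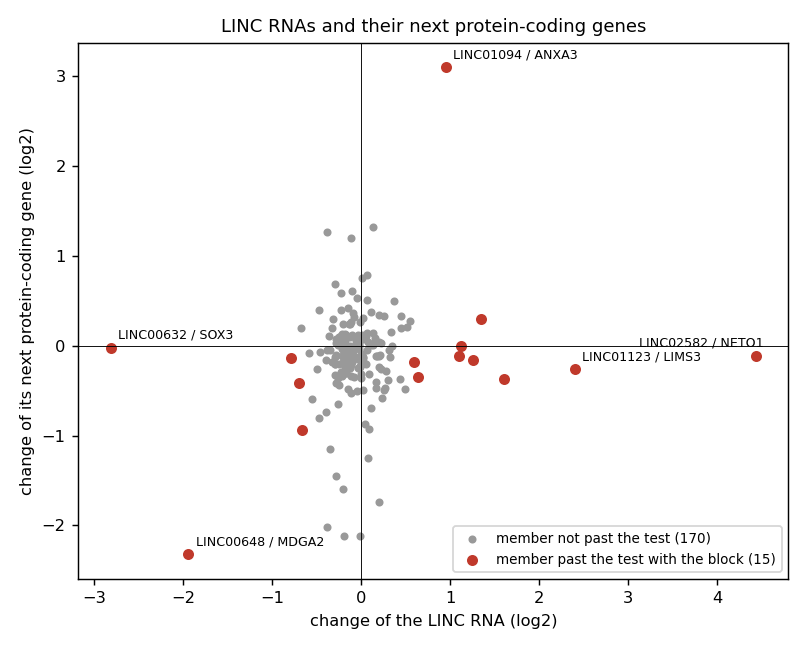
Change of the next protein-coding gene (y axis, log2) against change of the LINC RNA (x axis, log2) for the 185 members whose neighbour was measured, with members past the test with the replicate block in red. LINC00648 and MDGA2 lie together at the lower left, while LINC02582, LINC01123 and LINC00632 have neighbours near 0.

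Changes were also set against the CpG content at the start. RefSeq gave a promoter entry for 226 of the 300 members and for 10749 named genes, and the first listed start stood for genes with several. LINC02582, LINC00648 and LINC01963 were among the 74 members not analysed here for sequence. The median number of CpGs in the 300 bases was 7 for the members and 23 for the named genes with an entry, with a median G and C content of 52.7% for members and 63.3% for named genes. Over all 27305 genes of the table the medians were 14 CpGs and 58.3%. Members were split by CpG number at 4 and 13. The 83 members with few CpGs had a median change of -0.03 and 3 rises and 3 falls with the block. The 70 with a middle number had a median of -0.105 with no rise and 1 fall, and the 73 with 14 to 48 CpGs had a median of -0.05 with 5 rises and 2 falls.

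With the block 7.23%, 1.43% and 9.59% of the members with few, a middle number and many CpGs passed, against 6.39%, 11.0% and 16.9% of all named genes in the same CpG ranges. Untreated level moved with CpG number: the median untreated mean was 2.34, 2.47 and 2.997 in members with few, a middle number and many CpGs, so the part of level in these shares was not tested. Across the 226 members CpG number and change had a Spearman correlation of -0.03, and CpG number and untreated level one of 0.26. The 8 members that rose with the block and had an entry held 2 to 31 CpGs, 5 of them at least 14, and the 6 that fell held 2 to 26, 2 of them at least 14. Among these falls, LINC00339 held 7 at its first listed start and 18 at its other start, which these counts leave out.

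**Figure D5:**
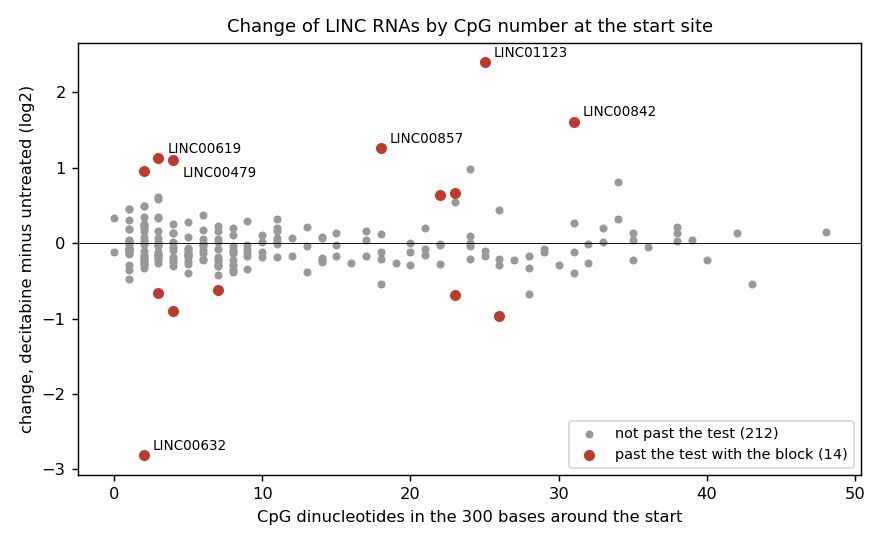
Change of each LINC RNA (y axis, log2) against the number of CpG dinucleotides in the 300 bases around its start (x axis) for the 226 members with a RefSeq entry, with members past the test with the replicate block in red. Changed members lie at both ends, LINC01123 at 25 and LINC00842 at 31 CpGs, and LINC00632 at 2.

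Short motifs were searched on both strands of the same 300 bases. The AP-1 site TGANTCA was present in 30 of 226 member starts (13.3%), against 7.76% of all 27305, and the amino acid response motif TGATGNAA in 13 (5.75%, against 3.67%). The GC box CCGCCC was found in 74 (32.7%, against 44.6%), the E2F-type motifs TTGGCGC and GGCGGGAA in 4 and 3 (1.77% and 1.33%, against 3.12% and 3.18%), and the CRE TGACGTCA in 4 (1.77%, against 1.98%). TATAAA occurred in 12.8% of member starts and 11.95% of all, and the E-box CACGTG in 7.52% and 7.43%. Of the 14 members past the test with the block, 2 held TGANTCA and 6 held CCGCCC. Member starts had fewer CpGs than all starts (median 7 against 14) and a lower G and C content (52.7% against 58.3%). The part of base composition in these motif shares was not tested. A match is a match of letters and was not taken as a bound site.

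For 42 members the array held more than 1 named feature. The changes had the same sign on every feature in 25 of these, with a median spread of 0.20 between the features of a gene and a largest spread of 0.93, for LINC01094. LINC01347 had 6 features, with changes of -0.39 to 0.11. LINC00665 differed by 0.07 on the feature used and by 0.77 on its other feature, and LINC00511 by 0.05 and 0.51. The 4 members past the test without the block had a single feature each.

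Other noncoding RNAs gave the setting for these counts. Of 489 antisense RNAs 6 rose and 1 fell, while the block brought this to 24 rises and 12 falls (7.36% together). The share of LINC members past the test with the block was 6.67%, against 13.2% of all named genes. The 940 RefSeq long noncoding RNA genes without a LINC number had 12 rises and 8 falls, and 8.83% passed with the block. In the dim class of untreated level 1.94% of the LINC members passed with the block, against 2.51% of these genes. The middle class had 3.09% (3 of 97 members), against 8.40%, and the bright class 15%, against 16.2%. Hosts of small nucleolar RNAs had 5 falls among 12 genes, and 1 of 29 measured well known long noncoding RNAs, GAS5, which is also such a host, fell. All 12 hosts lay in the bright class, where 1.71% of all named genes fell. Their median untreated mean was 6.69, against 2.57 for the LINC members. Some genes stand in more than 1 of these lists. No test of these differences between groups of genes was made.

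At the limit of 300, LINC00298 and LINC01304 were the last members, with means over the 6 arrays of 1.918 and 1.917, and LINC00880 and LINC00615 the first genes outside, with 1.915 each. All 158 LINC genes below it were in the dim class. Of these 1 rose (0.633%, against 1.35% of all named genes in that class) and none fell, and with the block 4 rose (2.53%, against 3.65%) and none fell (against 0.14%). The rise was LINC01203, with 2.73, 2.66 and 2.11 in decitabine cells against 1.62, 0.97 and 0.85 in untreated cells, a change of 1.35 (SE 0.28, limma adjusted p = 0.0487). Its groups did not overlap, and all its values were below the median of the named genes.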

How the data were processed

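Total RNA of 6 samples, 3 from decitabine and 3 from untreated SUM159 cells, was measured on single-colour arrays. The deposited values, read as log2, were made by the authors, and the submitters' processing notes name the Transcriptome Analysis Console. That reading rests on their range of 0.17 to 12.89 with 2 decimals. The sources used here give no log base, normalization, filter, version or build, so each fold rests on it. No measure of background was used, and precision is limited by the number of arrays.

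Gene names came from the platform annotation. Of 48226 features 16098 had a single gene symbol, none had several and 32128 were without a name here. Entrez IDs of all 14884 genes matched the RefSeq table of GRCh38.p14. No further normalization was applied. Groups were compared with limma 3.58.1 (lmFit, eBayes, two-sided) in R 4.3.3, on all 6 arrays without a covariate, with Benjamini-Hochberg adjustment over all named genes. The fit was tested on simulated data. Genes named are those past the test, the 5 brightest members, the 5 largest rises and falls that passed with the block and not without it, a list of LINC RNAs with a described role, the genes at the limit, and the next genes of those past the test. Members and lists were chosen with earlier results of these data known.

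Group and replicate number were taken from the titles. Deviations from the group means correlated at 0.682, 0.595 and 0.558 between same-numbered arrays over all genes and at 0.559, 0.539 and 0.467 over the members, against -0.483 to -0.006 between arrays of different numbers. Deviations within a group cancel each other, so higher values for equal numbers push those for different numbers down, and the contrast is partly arithmetic. On this basis, and from the titles, equal numbers were treated as pairs. The fit with the block used the same data. Separate cultures are not stated in the labels, and p-values then reflect only how far these samples spread, possibly for technical reasons. Alternatives were the replicate block, quantile normalization, median centring, a filter on dim genes, an intensity trend, the mean over features, all features tested and arrays left out.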

Additional observations from a re-analysis of the deposited data

How the results depend on the processing

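The counts of calls depended on the processing more than the named calls did. Against 2 rises and 2 falls in the fit without a block, the replicate block gave 12 and 8, quantile normalization 7 and 5, the brighter 50% of genes alone 5 and 5 (66 members tested), an intensity trend 5 and 4, median centring 5 rises, and leaving out both arrays of replicate 1 gave 4 rises. Calls in the bright class, 3 without a block, numbered 15 with the replicate block, 9 with quantile normalization or the brighter 50%, 7 with an intensity trend, and 5 with median centring or without both arrays of replicate 1. In the middle class, 0 calls became 3, 2, 1 and 1 with the block, quantile normalization, median centring and an intensity trend, and in the dim class 1 call became 2 with the block and 0 with classes by the mean of all arrays. With single arrays left out there were 2 to 4 rises, 1 to 2 falls, 1 call in the dim class, 0 to 1 in the middle, 2 to 5 in the bright, and a median change of -0.225 to 0.145, which was -0.035 without both arrays of replicate 1. The cause of these shifts was not tested. Added after the data were seen, the block with any single pair left out gave 0 rises and 0 falls among the members and 0 calls among all 14884 genes by limma, with 29 to 50 members at an unadjusted p under 0.05, so it says nothing about stability.

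LINC02582, LINC01123 and LINC00632 passed under all 14 alternatives and LINC00648 under 11. Of the named changes that passed under no alternative, 11 turned sign when single arrays were left out, with ranges of -0.02 to 0.215 for LINC00987, -0.15 to 0.35 for LINC00473, -0.28 to 0.24 for LINC00511, -0.17 to 0.27 for LINC00520, -0.105 to 0.18 for LINC01133, -0.165 to 0.33 for LINC00665, -0.063 to 0.43 for LINC00941, -0.48 to 0.17 for LINC00668, -0.175 to 0.46 for LINC00899, -0.42 to 0.125 for LINC00908 and -0.15 to 0.355 for LINC00298. A fit with a single array left out breaks a pair, so an offset shared by same-numbered arrays can enter these ranges. LINC01133 was also at -0.029 with quantile normalization, and without both arrays of replicate 1 LINC00908 was at 0.015 and LINC00511 at 0.28.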
